A study of Mus musculus with 16 samples.

Results

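Oxidative phosphorylation genes are followed here in mouse liver, across genotype, diet and the number series in the library titles. They were chosen by gene symbol, and no measured value enters the rule: symbols that begin with Nduf, Uqcr, Atp5 or Cox4 to Cox8, together with Sdha, Sdhb, Sdhc, Sdhd, Cyc1 and Cycs. This gave 91 of the 15544 genes in the table, and 2 further symbols that carry the pseudogene suffix -ps were left out. All 91 are encoded in the nucleus. They comprise 7 core and 30 accessory genes of complex I, 8 assembly factors of complex I, 4 genes of complex II, 9 of complex III, cytochrome c, 15 of complex IV and 17 of the ATP synthase.

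Liver RNA came from 16 female mice aged 27 weeks, with 1 library per mouse. Control mice were Esr1fl/fl, and mutant mice were Esr1Nkx2-1Cre, so both carry the floxed oestrogen receptor alpha gene and only the mutants carry the Cre recombinase under Nkx2-1. Mice of each genotype were fed chow or a high-fat diet (HFD) for 17 weeks, which gave 4 groups of 4 libraries named Control_Chow, Mutant_Chow, Control_HFD and Mutant_HFD. Nkx2-1 is active in the hypothalamus, lung and thyroid and not in hepatocytes, so the liver level of Esr1 does not check the genotype. It ranged from 7.59 to 15.9 in Control_Chow, 8.02 to 19.6 in Mutant_Chow, 6.14 to 8.09 in Control_HFD and 6.42 to 22.9 in Mutant_HFD. Library titles fall into number series whose meaning the labels do not give. On HFD, the lower-numbered series holds Control_HFD replicates 1 to 3 and Mutant_HFD replicate 1, and the higher-numbered series holds Control_HFD replicate 4 and Mutant_HFD replicates 2 to 4. On chow, the lower-numbered series holds Control_Chow replicates 1 and 2 and Mutant_Chow replicate 1, and the higher-numbered series holds the other 5 libraries. Each series lies within a single diet, so diet and series cannot be told apart.

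Oxidative phosphorylation takes place in the inner mitochondrial membrane. Complexes I and II pass electrons from NADH and succinate to ubiquinone, complex III passes them on to cytochrome c, and complex IV hands them to oxygen, while complexes I, III and IV pump protons that drive the ATP synthase. A few hydrophobic subunits of complexes I, III, IV and V are encoded by mitochondrial DNA and every other subunit is imported from the cytosol, so both genomes have to supply each of those complexes, whereas complex II is wholly nuclear. Liver uses the pathway to oxidise fatty acids and amino acids and to power glucose and urea synthesis.

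Many of the nuclear genes encode very short proteins. The coding sequences of Uqcr11, a small subunit of complex III on chromosome 10, and of Atp5e, the epsilon subunit of the ATP synthase on chromosome 2, are shown because these short genes were among those that differed most within the HFD libraries. The former has 171 nucleotides for 56 residues and the latter 159 nucleotides for 52 residues, from GENCODE release M21 on GRCm38, written 5′ to 3′ in the sense of the gene and with no part in capitals.
Uqcr11: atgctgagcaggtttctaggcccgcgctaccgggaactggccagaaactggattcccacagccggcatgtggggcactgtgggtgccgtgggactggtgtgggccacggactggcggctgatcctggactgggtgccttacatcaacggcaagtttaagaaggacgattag
Atp5e: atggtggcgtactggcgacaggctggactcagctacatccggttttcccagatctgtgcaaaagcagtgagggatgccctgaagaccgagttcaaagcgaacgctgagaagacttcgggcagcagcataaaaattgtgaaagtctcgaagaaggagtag

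Promoters of nuclear respiratory genes often hold sites for NRF1, for ETS factors such as GABP, and for YY1. RefSeq promoters on GRCm38.p6, from 250 bases before to 50 bases after a gene's start, were found for 75 of the 91 genes. Of those shown, a pair belongs to genes that were lower in the higher-numbered HFD series, and a pair to genes that did not pass there. Each of these holds a match to the letters given next. The promoters of Ndufs5, Atp5e and Ndufa13, whose genes were also lower in that series, hold none. Capitals mark matches to the letters GCGCATGC (NRF1), CCGGAAGT (ETS) or AAGATGGC (YY1) on either strand. Uqcr11 lies at chr10:80406772-80407071 on the minus strand and Ndufaf8, an assembly factor of complex I, at chr11:120098684-120098983 on the plus strand. Cycs, which encodes cytochrome c, lies at chr6:50566520-50566819 on the minus strand and Sdhb, the iron-sulphur subunit of complex II, at chr4:140961021-140961320 on the plus strand.
Uqcr11 promoter: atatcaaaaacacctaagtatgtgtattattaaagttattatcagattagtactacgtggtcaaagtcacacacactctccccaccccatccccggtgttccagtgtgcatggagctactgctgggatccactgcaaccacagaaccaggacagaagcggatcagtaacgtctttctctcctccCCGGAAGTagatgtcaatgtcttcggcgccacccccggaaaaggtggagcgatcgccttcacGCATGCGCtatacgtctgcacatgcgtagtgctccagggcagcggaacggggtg
Ndufaf8 promoter: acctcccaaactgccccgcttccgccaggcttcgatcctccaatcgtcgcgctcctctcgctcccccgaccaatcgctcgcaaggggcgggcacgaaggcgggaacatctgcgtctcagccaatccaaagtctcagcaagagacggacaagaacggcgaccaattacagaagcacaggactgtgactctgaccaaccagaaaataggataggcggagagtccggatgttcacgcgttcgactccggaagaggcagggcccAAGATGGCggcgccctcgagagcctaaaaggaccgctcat
Cycs promoter: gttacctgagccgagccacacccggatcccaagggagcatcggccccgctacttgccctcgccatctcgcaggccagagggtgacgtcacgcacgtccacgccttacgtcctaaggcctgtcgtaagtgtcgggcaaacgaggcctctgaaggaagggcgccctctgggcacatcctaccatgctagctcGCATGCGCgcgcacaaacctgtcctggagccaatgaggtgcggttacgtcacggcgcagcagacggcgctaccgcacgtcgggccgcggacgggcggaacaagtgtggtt
Sdhb promoter: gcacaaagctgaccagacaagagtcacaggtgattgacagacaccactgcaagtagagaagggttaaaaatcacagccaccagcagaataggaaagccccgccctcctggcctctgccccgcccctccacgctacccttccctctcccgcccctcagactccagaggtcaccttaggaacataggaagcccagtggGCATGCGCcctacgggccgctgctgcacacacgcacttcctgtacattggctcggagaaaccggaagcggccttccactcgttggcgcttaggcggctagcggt

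The NRF1 letters were found for 13 of the 75 genes, or 17.3%, against 5.83% of the 9694 tested genes that have a promoter. A gene counted if the promoter of any of its listed starts held the letters. The YY1 letters were found for 11 genes (14.7%, against 5.28%) and the ETS letters for 5 (6.67%, against 9.06%). Of the genes that fell in the higher-numbered HFD series 42 have a promoter in the set, of which 19.0% held NRF1 letters and 14.3% YY1 letters. Of the 33 that did not pass, 15.2% held each. A match is a description of the letters and not evidence that a factor binds there.

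The deposited values behave as TPM, an expression unit that corrects for gene length, after a further adjustment between libraries, and sequencing depth cannot be read from them. Column totals ran over 905897 to 1119703. Hepatocyte markers were high throughout, with Alb at 36044 or more in every library. Red blood cell markers differed widely in level, with Slc4a1 at 0 to 0.744, Alas2 at 6.26 to 27.1 and the alpha globin Hba-a2 at 667 to 2645 over the 16 libraries. Of the fat cell markers, Plin1 lay at 0 to 0.149 and Cidec at 4.12 to 13.5. In bulk tissue, fewer cells of a type and less RNA per cell cannot be told apart.

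On this per-length scale the mean levels of the 91 genes spanned a wide range. The highest was Atp5b, the catalytic beta subunit of the ATP synthase, with a mean of 1763 over 16 libraries (range 1112 to 2213). The highest of complex III was Uqcrq, a small subunit, at 1055 (range 704 to 1879), and the highest of complex IV was Cox6a1 at 983 (range 649.9 to 1574). Complex I genes lay lower. Ndufb9 led the accessory subunits at 403 and Ndufs7, which holds an iron-sulphur cluster, led the core at 194. Sdhb led complex II at 311. The assembly factors, which help to build complex I and are not part of the finished enzyme, ran from 6.55 for Ndufaf5 to 44.9 for Ndufaf8, and Cycs was at 27.9. The lowest of the other roles were Ndufa11 (23.1), Ndufs3 (79.8), Sdhd (177), Uqcrc1 (132) and Atp5g2 (35.3).

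Where complex IV has paralogous subunits, the widely expressed form was far above its alternative. Cox7a2 had a mean of 248 against 6.97 for Cox7a1, the heart and muscle form, and the related Cox7a2l, which links complexes III and IV, was at 77.3. Cox6b1 was at 411 and Cox6b2, known from testis, at 34.9. Ndufa4, which is now assigned to complex IV, was at 568 and its paralogue Ndufa4l2, known as a hypoxia-induced gene, was the lowest of all 91 at 3.10. Cox4i1 and Cox8a were at 762 and 646. The symbol rule would also take Cox4i2, Cox6a2 and Cox8b, but they were not among the 15544 genes with values. The genes that encode the identical mature c subunit of the ATP synthase ring ranked Atp5g3 (669.9), Atp5g1 (544) and Atp5g2. The value of Atp5g2 is uncertain, because 87.7% of the 31-base words of its transcript also occur in another annotated gene. At least 30% were shared for 10 of the 91 genes, among them Cox7c, Uqcrb, Ndufs3, Cox5b and Cycs, and none were shared for 36 of the 90 for which this could be measured. Ndufb4c is annotated as a processed pseudogene and shares words with Ndufb4.

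The sum over the 91 genes was highest in the lower-numbered HFD series, whose 4 libraries stood above the other 12. Their sums were 30997, 35249.7, 37805 and 30303, against 20798, 21278, 23735 and 23699.8 in the higher-numbered HFD series. Chow libraries lay between 17594 and 27292. The 91 genes thus made up 1.66% to 3.38% of a library. The lowest sum belonged to Mutant_Chow replicate 2, which held the lowest of the 16 values for 48 of the 91 genes, against 10.8% of all genes. Control_HFD replicate 4 held the lowest value for 24, against 9.59% of all genes. Within Control_HFD, therefore, replicates 1 to 3 and replicate 4 lie toward opposite ends of the 16 libraries, as the heat map of the genes shows.

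**Figure D1:**
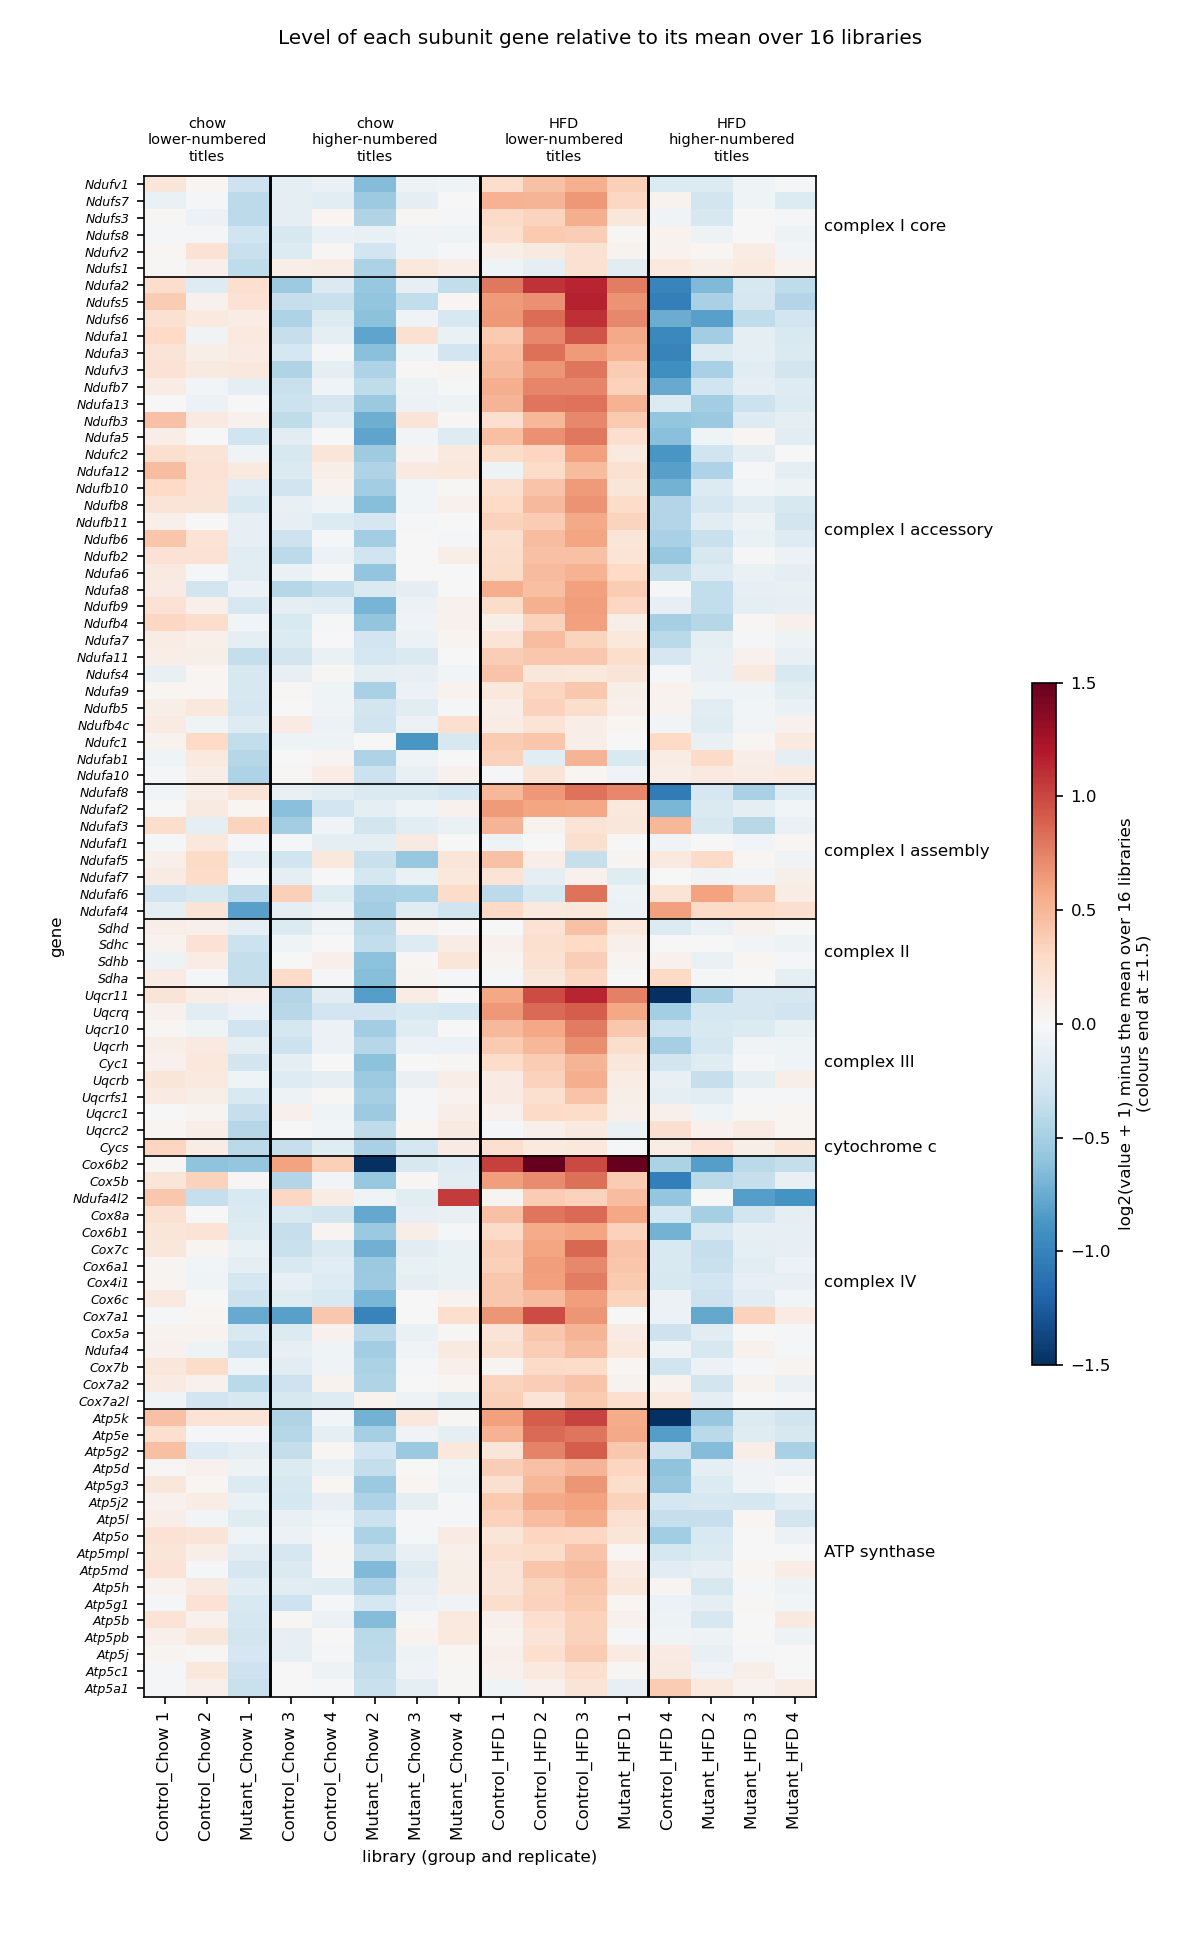
Each row is 1 of 90 of the 91 genes, grouped by role, and each column is 1 of the 16 libraries, grouped by diet and title series, with colour for log2(value + 1) minus the gene's mean over the 16 libraries, red above and blue below. The 4 columns of the lower-numbered HFD series are mostly red, and 63 of the 91 genes were higher in all 4 of these libraries than in any of the higher-numbered HFD series.

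**Figure D2:**
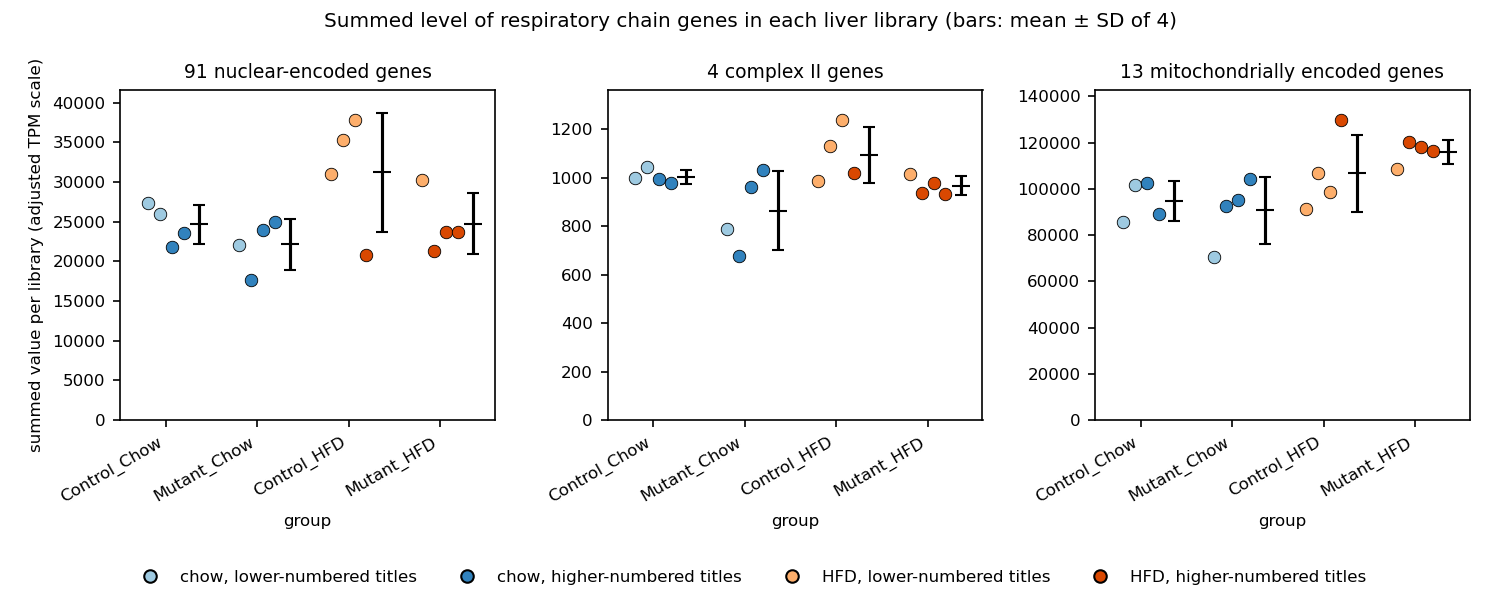
Points are single libraries in 4 groups, coloured by title series, and the vertical axis is the summed value per library on the adjusted TPM scale for the 91 nuclear genes (left), the 4 genes of complex II (middle) and the 13 mitochondrially encoded genes (right), with bars for the mean and SD of 4 libraries. On HFD the lower-numbered series is above the higher-numbered one in the left panel and below it in the right panel.

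The marker genes of the complexes spread differently within the 4 groups. Ndufb8 of complex I was at 245 ± 27.2 in Control_Chow, 207 ± 41.8 in Mutant_Chow, 293 ± 86.8 in Control_HFD and 223 ± 42.4 in Mutant_HFD (mean ± SD, n = 4 each). Cox4i1 of complex IV was at 697 ± 48.2, 620.5 ± 83.7, 998 ± 273 and 734 ± 163 in the same order. For both, the SD was widest in Control_HFD. Either HFD group is divided 3 to 1 between the title series. Sdhb of complex II was at 314.1 ± 18.3, 275 ± 67.7, 348 ± 37.6 and 305 ± 13.9. Uqcrc2 of complex III was at 186 ± 7.44, 165 ± 32.8, 197 ± 15.72 and 187 ± 12.5. Atp5a1 of the ATP synthase was at 569 ± 20.8, 497 ± 60.0, 629 ± 83.5 and 586 ± 46.0. The SD of Sdhb and Uqcrc2 was widest in Mutant_Chow and that of Atp5a1 in Control_HFD.

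The first question was whether the mutation changed these genes in liver. On chow, 0 of the 91 genes passed an adjusted p of 0.05 in limma between Mutant_Chow and Control_Chow, and 0.0236% of all 12704 tested genes did. At an unadjusted p under 0.05, 5 were lower in mutants and 0 higher, against 1.85% of all genes that were lower. The fold change was negative for 85 of 91, with a median of -0.17 on the log2(value + 1) scale, beside 0.020 for all genes. The 4 smallest p-values belonged to Ndufaf4, Ndufc1, Ndufa10 and Sdha. Ndufaf4, an assembly factor, read 14.8, 18.9, 14.8 and 15.4 in Control_Chow and 8.90, 11.1, 14.3 and 13.2 in Mutant_Chow, with every mutant below every control (log2 fold change -0.41, SE 0.15, limma adjusted p = 0.791). Ndufc1, an accessory subunit, read 71.1, 84.2, 65.2 and 65.1 in controls and 52.8, 68.8, 37.1 and 58.1 in mutants (log2 fold change -0.42, SE 0.15, limma adjusted p = 0.791). Its groups overlapped, and so did those of Ndufa10 (log2 fold change -0.26, SE 0.11) and of Sdha, the flavoprotein of complex II (log2 fold change -0.33, SE 0.14). Controls lay above mutants without overlap for 1 of 91 genes, against 1.09% of all genes. The median was -0.067 without Mutant_Chow replicate 2 and -0.061 with library weights. Within 1 title series at a time it was -0.29 in the lower-numbered and -0.051 in the higher-numbered chow libraries. By role the medians ran from -0.096 for the assembly factors to -0.23 for Cycs and -0.23 for complex II, whose 4 genes were all lower in value. The 6 Kupffer cell markers were all higher in value in Mutant_Chow (median 0.63), with 0 called and 1 at an unadjusted p under 0.05 in limma. Their part in these values was not tested.

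On HFD, 0 of 91 genes passed between Mutant_HFD and Control_HFD, beside 0.0157% of all genes. At an unadjusted p under 0.05, 10 were lower and 0 higher in mutants, against 3.83% of all genes that were lower, and 89 of 91 had a negative fold change with a median of -0.26. Ndufs7 read 271, 269, 297 and 195 in Control_HFD and 233.5, 156, 181 and 164 in Mutant_HFD (log2 fold change -0.49, SE 0.16, limma adjusted p = 0.527). Replicate 4 was the lowest of the controls, replicate 1 was the highest of the mutants, and the groups overlapped. Ndufs8, another iron-sulphur subunit of the complex I core, did not overlap and read 154, 172, 168 and 136 in controls and 132, 123, 131 and 124 in mutants (log2 fold change -0.30, SE 0.099, limma adjusted p = 0.527). The next smallest p-values were those of the accessory subunits Ndufa8 (log2 fold change -0.45, SE 0.17) and Ndufa13 (-0.62, SE 0.24). The other 6 at an unadjusted p under 0.05 were Cox7a2, Cox7a2l, Ndufaf3, Ndufb5, Ndufa9 and Atp5j2, from -0.46 to -0.25. No overlap between controls and mutants was seen for 2 of 91 genes, against 1.31% of all genes. The count at an unadjusted p under 0.05 turned on single libraries. It was 62 without Control_HFD replicate 4 (23.9% of all genes in either direction, median -0.41) and 28 without Mutant_HFD replicate 1 (20.1% of all genes, median -0.33). Without Mutant_Chow replicate 2 it was 16, beside 1198 of all 12704 genes. Without Control_HFD replicate 2 it was 5 (641 of all genes), and without Control_HFD replicate 3 it was 3 (688 of all genes) with a median of -0.16. Without Mutant_HFD replicate 2 it was 2 (571 of all genes), and without Mutant_HFD replicate 3 or 4 it was 6 (639 and 656 of all genes). The groups are unbalanced between the title series, and with the series as a term in the fit the median was -0.042 with 0 genes called and 4 at an unadjusted p under 0.05, beside 4.47% of all genes. Within the lower-numbered series it was -0.18 and within the higher-numbered series 0.053. With libraries weighted by their overall fit, 65 genes passed and all were lower in mutants, against 14.2% of all genes that were then lower. The weights were 0.228 for Control_HFD replicate 4 and 0.329 for Mutant_HFD replicate 1, against 0.908 to 2.10 for the other HFD libraries. Both down-weighted libraries lie apart from the rest of their group in title series. The part of the series in this count was not tested. Complex IV had the lowest median of the roles, -0.40, with 15 of 15 negative values, and the mitochondrially encoded subunits had a median of 0.15 with 0 of 13 called and 0 at an unadjusted p under 0.05 in limma.

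The question of diet was asked within each genotype. In controls, 0 of 91 genes passed between Control_HFD and Control_Chow and 0% of all genes did. At an unadjusted p under 0.05, 15 genes were higher on HFD and 0 lower, against 6.4% of all genes that were higher, with 86 positive fold changes and a median of 0.23. Cox7a2l read 73.7, 62.3, 64.7 and 66.8 on chow and 98.3, 88.5, 101 and 85.01 on HFD, with all HFD controls above all chow controls (log2 fold change 0.47, SE 0.11, limma adjusted p = 0.163). Ndufa8 read 124, 93.6, 84.2 and 88.1 on chow and 166, 155, 174 and 112 on HFD, and the groups overlapped because Control_HFD replicate 4 lay below the highest chow control (log2 fold change 0.63, SE 0.17, limma adjusted p = 0.202). Ndufs8 gave a log2 fold change of 0.36 (SE 0.099, limma adjusted p = 0.205) and Ndufs7 of 0.53 (SE 0.16, limma adjusted p = 0.215). The others at an unadjusted p under 0.05 included the core subunit Ndufs3, the accessory Ndufa13, the assembly factors Ndufaf3 and Ndufaf4, Uqcrq and Uqcr10 of complex III, and Cox4i1, Cox6a1, Cox6c and Cox7a2 of complex IV, from 0.31 to 0.67. None was a gene of complex II or of the ATP synthase. These values turned on Control_HFD replicate 4. Without it, 21 genes passed, all higher on HFD, against 4.07% of all genes, and the median was 0.39. Without Control_HFD replicate 3 the median was 0.14. With the whole higher-numbered HFD series left out 30 passed, all higher, against 5.85% of all genes. When the only HFD control was replicate 4 the median was -0.18 with 0 genes called and 26 at an unadjusted p under 0.05, against 9.34% of all genes in either direction. With library weights, which were lowest for Control_HFD replicate 4 (0.228), 48 passed, all higher, against 9.24% of all genes. Of the 78 mitochondrial ribosome genes 0 passed in limma and 23 were higher on HFD at an unadjusted p under 0.05. Red blood cell markers had a median of 0.56 with 5 of 5 positive values and 0 called, and their part in these values was not tested.

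In mutants, 0 of 91 genes passed between Mutant_HFD and Mutant_Chow, beside 0% of all genes. At an unadjusted p under 0.05, 4 were higher on HFD and 0 lower, against 2.71% of all genes that were higher, and the median was 0.14 with 84 positive fold changes. Ndufaf4 read 8.90, 11.1, 14.3 and 13.2 on chow and 15.4, 20.3, 20.4 and 19.6 on HFD, and the groups did not overlap (log2 fold change 0.64, SE 0.15, limma adjusted p = 0.42). Cycs read 20.4, 19.4, 22.6 and 29.9 on chow and 27.1, 32.2, 29.4 and 31.2 on HFD (log2 fold change 0.38, SE 0.15, limma adjusted p = 0.679). Its highest chow value, from replicate 4, lay within the HFD range. Ndufa10 (log2 fold change 0.29, SE 0.11) and Ndufc1 (0.38, SE 0.15) completed the 4 smallest p-values. Ndufaf4, Ndufa10 and Ndufc1 were also among the 4 smallest p-values of the chow genotype comparison, which shares the Mutant_Chow libraries with this one. The median was 0.048 without Mutant_Chow replicate 2, 0.064 without Mutant_HFD replicate 1 and 0.0090 with library weights. It was 0.20 without Mutant_HFD replicate 2, and 0.36 when the only HFD mutant was replicate 1. The 6 Kupffer cell markers were all lower in value on HFD (median -0.54, 0 called, 1 at an unadjusted p under 0.05 in limma).

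In the interaction, which asks whether the diet difference depended on genotype, 0 of 91 genes passed and 0% of all genes did. At an unadjusted p under 0.05, 2 genes had a negative interaction and 0 a positive one, against 2.42% of all genes with a negative one. They were Ndufa8 (log2 fold change -0.58, SE 0.24, limma adjusted p = 0.895) and Cox7a2l (log2 fold change -0.34, SE 0.15, limma adjusted p = 0.895). Ndufaf3, an assembly factor, followed with -0.52 (SE 0.26) and Ndufs8 with -0.26 (SE 0.14). The median over the 91 genes was -0.086. It was -0.26 without Control_HFD replicate 4, where 20 genes had an unadjusted p under 0.05 in limma, beside 1761 of all 12704 genes. Without Control_HFD replicate 3 the median was 0.0073. It was -0.40 with library weights, where 49 of the 91 had an unadjusted p under 0.05 in limma, beside 3261 of all 12704 genes. When the only HFD control was replicate 4, with the lower-numbered HFD series left out, it was 0.27. It turned to 0.12 with the title series as a term and to 0.078 with columns scaled to equal totals, which moved the median of all genes from -0.012 to 0.13.

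**Figure D3:**
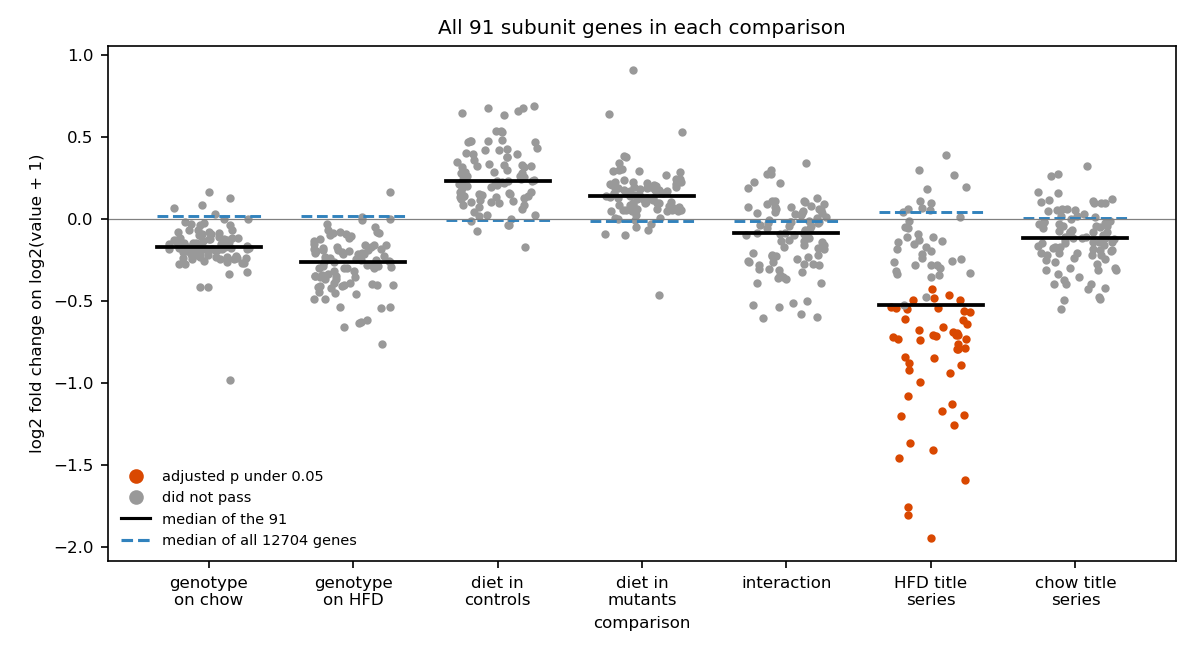
Each point is 1 of the 91 genes, and the vertical axis is its log2 fold change on log2(value + 1) in each of 7 comparisons on the horizontal axis (mutant minus control, HFD minus chow, the interaction, and higher- minus lower-numbered titles), with black bars for the median of the 91 genes, dashed lines for that of all 12704 genes and orange for an adjusted p under 0.05. Only the comparison of the HFD title series has orange points, 50 of them, all negative.

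Between the title series of the HFD libraries, with genotype in the fit, 50 of the 91 genes had lower levels in the higher-numbered series and 0 had higher levels. Of all tested genes, 11.6% were lower and 13.5% higher. The median of the 91 genes was -0.53, beside 0.043 for all genes. With columns scaled to equal totals these medians were -0.38 and 0.17, with 42 genes lower and 2 higher, against 6.99% and 20.8% of all genes. Scaled without the 20 most abundant genes, 35 were lower and 1 higher, against 7.02% and 18.9%. All 4 lower-numbered libraries lay above all 4 higher-numbered ones for 63 of the 91, against 16% of all genes, and the reverse held for 0, against 19.6%. For 49 genes the 4 lower-numbered HFD libraries also lay above all 8 chow libraries (7.79% of all genes), and for 47 above all other 12 libraries (6.91%). The count depended on Control_HFD replicate 4. Without it 7 genes passed, against 2.76% of all genes that were then lower, 29 had an unadjusted p under 0.05, against 23.3% in either direction, and the median was -0.30, while all 50 called genes kept a negative fold change. The lower-numbered libraries then lay above the 3 higher-numbered ones that remain for 69 genes, against 18.6% of all genes.

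Among the core subunits of complex I, which carry its redox centres, 3 of 7 were lower and the median was -0.35. Ndufv1, which binds NADH, fell by 0.54 (SE 0.14, limma adjusted p = 0.0171) and Ndufs7 by 0.50 (SE 0.12, limma adjusted p = 0.0109) on the log2 scale. With columns scaled to equal totals 1 of the 7 passed. Ndufs3 and the iron-sulphur subunits Ndufs8 and Ndufv2 gave -0.35 (SE 0.13), -0.17 (SE 0.097) and -0.058 (SE 0.11) and did not pass. Ndufs1, the largest core subunit, did not pass. It read 76.4, 72.6, 94.6 and 72.1 in the lower-numbered and 88.8, 85.5, 88.9 and 83.1 in the higher-numbered series, and these overlap (log2 fold change 0.19, SE 0.15).

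Accessory subunits, which surround the core and stabilise complex I, were the role with the most calls: 22 of 30, with a median of -0.68. Ndufa2 read 351, 430.3, 448 and 345 in the lower-numbered series and 102, 128, 171 and 155 in the higher-numbered series (log2 fold change -1.59, SE 0.20, limma adjusted p = 0.000278). Its 8 chow libraries ran from 137 to 244 with a median of 176, so the lower-numbered HFD libraries were above chow, and Control_HFD replicate 4 and Mutant_HFD replicate 2 were below it. Ndufs6 read 242, 275, 329 and 252 and then 91.4, 86.4, 117 and 126 (log2 fold change -1.41, SE 0.18, limma adjusted p = 0.00028). Ndufs5 read 42.9, 44.4, 61.6 and 44.2 and then 12.9, 19.1, 22.7 and 19.8 (log2 fold change -1.46, SE 0.20, limma adjusted p = 0.00041). For both the series did not overlap, and 27.4% (Ndufs5) and 26.8% (Ndufs6) of their 31-base words occur in other annotated genes. Ndufa13, also known as Grim19, read 112, 138, 139 and 113 and then 67.8, 54.2, 62.5 and 67.5 (log2 fold change -0.89, SE 0.13, limma adjusted p = 0.000689), and here Control_HFD replicate 4 was the highest of the higher-numbered libraries. Ndufb8, commonly used as a marker of complex I, read 291, 332, 375 and 286 and then 173, 197, 211 and 198 (log2 fold change -0.72, SE 0.17, limma adjusted p = 0.00843), and its 8 chow libraries ran from 151 to 269 with a median of 227. Without Control_HFD replicate 4 the adjusted p of Ndufb8 was 0.216 (limma). Of the other called accessory genes, Ndufa1 (-1.26), Ndufa3 (-1.17) and Ndufb7 (-0.99) fell most and Ndufa7 (-0.49) and Ndufa11 (-0.48) least. The 8 accessory genes that did not pass were Ndufb4, Ndufs4, Ndufa9, Ndufb5, Ndufb4c, Ndufc1, Ndufab1 and Ndufa10, with fold changes from -0.53 to 0.11.

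Of the 8 assembly factors of complex I, 2 were lower, and the median of 0.0062 was close to that of all genes. Ndufaf8 had the smallest p of all 91 genes and read 60.3, 67.5, 75.2 and 71.0 in the lower-numbered and 20.1, 35.4, 30.2 and 37.1 in the higher-numbered series (log2 fold change -1.37, SE 0.14, limma adjusted p = 0.000118). Its 8 chow libraries ran from 35.5 to 48.6 with a median of 38.6. Without Control_HFD replicate 4 its log2 fold change was -1.04 (limma adjusted p = 0.00623). Ndufaf2 fell by 0.79 (SE 0.18, limma adjusted p = 0.00759). Ndufaf4 had the highest value of the 91 in the other direction, 0.39 (SE 0.14), and did not pass with an adjusted p of 0.0602 in limma. With columns scaled to equal totals or without the 20 most abundant genes it did pass. Its values were 20.4, 18.3, 18.3 and 15.4 in the lower-numbered and 25.7, 20.3, 20.4 and 19.6 in the higher-numbered series, which overlapped. Ndufaf1, Ndufaf3, Ndufaf5, Ndufaf6 and Ndufaf7 did not pass, with values from -0.093 to 0.30.

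No gene of complex II passed: 0 of 4 at the adjusted threshold and 1 at an unadjusted p under 0.05 in limma, with a median of -0.13 that became 0.017 with columns scaled to equal totals. Sdhb read 315.9, 361, 396 and 316.04 in the lower-numbered and 321, 286, 314.3 and 302 in the higher-numbered series (log2 fold change -0.11, SE 0.17). The series overlapped, and the sign changed under both that scaling and scaling without the 20 most abundant genes. Sdha gave 0.045 (SE 0.16), Sdhc -0.16 (SE 0.12) and Sdhd -0.30 (SE 0.14). Sdhc and Sdhd are the membrane anchors of the complex.

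In complex III, 5 of 9 genes were lower and the median was -0.46. The called genes were 4 small subunits without redox centres and Cyc1, which carries the haem of cytochrome c1. Uqcr11 read 736, 971, 1088 and 833 in the lower-numbered and 171, 349.6, 412 and 412 in the higher-numbered series (log2 fold change -1.76, SE 0.28, limma adjusted p = 0.00101). Control_HFD replicate 4 was the lowest of all 16 libraries, and without it the log2 fold change was -1.09 and the limma adjusted p was 0.059. Uqcrq read 1566, 1806, 1879 and 1493 and then 704, 833, 843 and 810.3 (log2 fold change -1.08, SE 0.12, limma adjusted p = 0.000159), with chow libraries from 749.9 to 1048 with a median of 842. Its higher-numbered libraries thus lay close together and within or near the chow range. Uqcr10 fell by 0.76 (SE 0.14), Uqcrh by 0.71 (SE 0.15) and Cyc1 by 0.46 (SE 0.16). Uqcrb (-0.34, SE 0.16) and Uqcrfs1, the Rieske iron-sulphur protein (-0.28, SE 0.14), did not pass. The core proteins Uqcrc1 (-0.11, SE 0.14) and Uqcrc2 did not pass. Uqcrc2, commonly used as a marker of the complex, read 179, 193, 201 and 169.8 and then 216, 191, 199.5 and 186 (log2 fold change 0.18, SE 0.13).

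Cytochrome c, the mobile carrier between complexes III and IV, did not pass. Cycs read 32.9, 30.6, 30.7 and 27.1 in the lower-numbered and 29.7, 32.2, 29.4 and 31.2 in the higher-numbered series, an overlap (log2 fold change 0.055, SE 0.17, limma adjusted p = 0.838). Reads of Cycs can also be assigned to a similar gene in the table, which makes its value uncertain.

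In complex IV, 10 of 15 genes were lower and all 15 fold changes were negative, with a median of -0.70. Cox4i1, the marker and largest nuclear subunit, read 979, 1132, 1255 and 972 in the lower-numbered and 625, 607, 676 and 679 in the higher-numbered series (log2 fold change -0.70, SE 0.13, limma adjusted p = 0.00266). Without Control_HFD replicate 4 the limma adjusted p was 0.0913. Among the paralogous pairs, Cox6b2 read 57.2, 84.5, 56.1 and 90.6 and then 19.6, 15.1, 20.6 and 21.3 (log2 fold change -1.94, SE 0.51, limma adjusted p = 0.0145), a larger fold change than that of Cox6b1 (-0.85, SE 0.19). The difference between the pair was not tested. Cox6a1 (-0.71, SE 0.14) and Cox8a (-0.92, SE 0.18) were lower as well. Cox5b, which binds zinc, read 468, 493, 535 and 392 and then 148, 229, 237 and 279 (log2 fold change -1.204, SE 0.21, limma adjusted p = 0.00178), with Control_HFD replicate 4 the lowest of the 16 libraries. Cox5a (-0.43), Cox6c (-0.55) and Cox7c (-0.73) completed the calls. Cox7a1 (-0.48), Cox7b (-0.28), Cox7a2 (-0.24) and Cox7a2l (-0.24) did not pass. Ndufa4l2 passed at values of 2.99, 4.05, 3.93 and 4.33 and then 1.59, 2.87, 1.19 and 1.08, with a limma adjusted p of 0.0476, whereas Ndufa4 did not (-0.33, SE 0.15).

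Of the 17 ATP synthase genes 8 were lower, with a median of -0.34. Atp5e, in the central stalk, read 1324, 1666, 1612 and 1364 in the lower-numbered and 519, 697, 816 and 784 in the higher-numbered series (log2 fold change -1.19, SE 0.17, limma adjusted p = 0.00062), and its chow libraries ran from 653 to 1089.9 with a median of 861. Atp5k, a small membrane subunit, read 423, 519, 556 and 406 and then 75.8, 185, 239 and 225 (log2 fold change -1.80, SE 0.32, limma adjusted p = 0.00178), and Control_HFD replicate 4 was again the lowest of the 16. Among the c subunit genes, Atp5g2 and Atp5g3 passed and Atp5g1 did not (-0.25, SE 0.13). Atp5d, Atp5g2, Atp5g3, Atp5j2, Atp5l and Atp5o fell by 0.54 to 0.84. The long subunits of the catalytic head did not pass. Atp5a1, the alpha subunit, read 541, 592, 647 and 522 and then 736, 626, 587 and 611 (log2 fold change 0.27, SE 0.11, limma adjusted p = 0.0886), and it passed as higher when columns were scaled to equal totals. Atp5b gave -0.20 (SE 0.19) and Atp5c1, the gamma subunit, -0.010 (SE 0.11). Atp5h, Atp5j, Atp5md, Atp5mpl and Atp5pb, of the stalk and membrane part, did not pass, with values from -0.34 to -0.14.

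**Figure D4:**
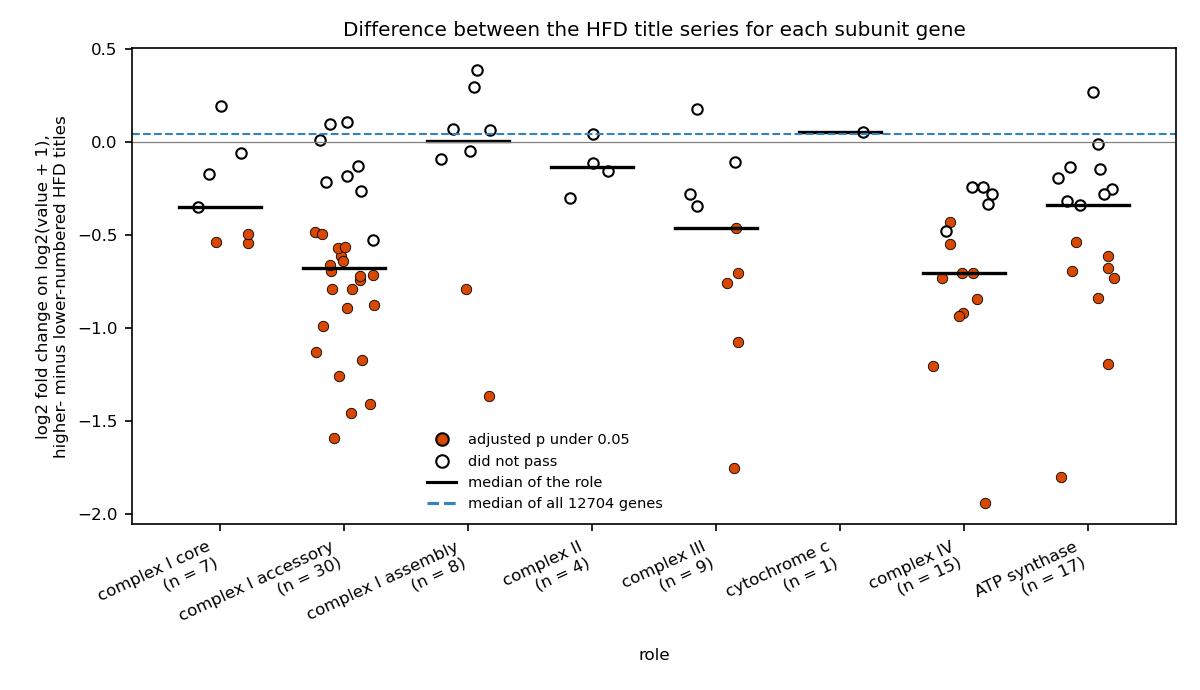
Each point is 1 gene, placed by its role on the horizontal axis, and the vertical axis is its log2 fold change between the HFD title series, higher- minus lower-numbered, where filled points passed an adjusted p of 0.05, bars are the medians of each role and the dashed line is the median of all genes at 0.043. Complex II has 0 filled points of 4, and the accessory subunits of complex I have 22 of 30.

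The called genes were mostly those with short coding sequences, which the choice of genes did not use. Of the 24 genes with at most 300 coding nucleotides 17 were lower, against 40.8% of all genes of that length, and their median was -0.80 beside -0.45 for all such genes. From 301 to 600 nucleotides 27 of 41 were lower (28.3% of all genes, medians of -0.61 and -0.23). From 601 to 900 nucleotides 2 of 9 were lower (17.7%, medians of -0.17 and -0.11), and at 901 nucleotides or more 4 of 16 were lower (7.17%, medians of -0.0029 and 0.11). Across genes, which are not independent replicates, the Spearman coefficient of fold change and coding length was 0.56 over 90 of the 91 genes and 0.32 over 12158 tested genes. The genes share libraries and their length adjustment. Fold changes thus moved with coding length among all genes as well as among these, and the part of length in the result was not tested. Between the chow title series, where no gene passed, the coefficients were 0.437 for the 90 genes and 0.102 for all, and for diet in controls they were -0.391 and -0.327. Ndufv3, a long gene in the annotation, was an exception by its value, reading 263, 299.7, 330.2 and 246 in the lower-numbered and 99.3, 134, 169 and 155 in the higher-numbered series (log2 fold change -1.13, SE 0.19, limma adjusted p = 0.00131).

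**Figure D5:**
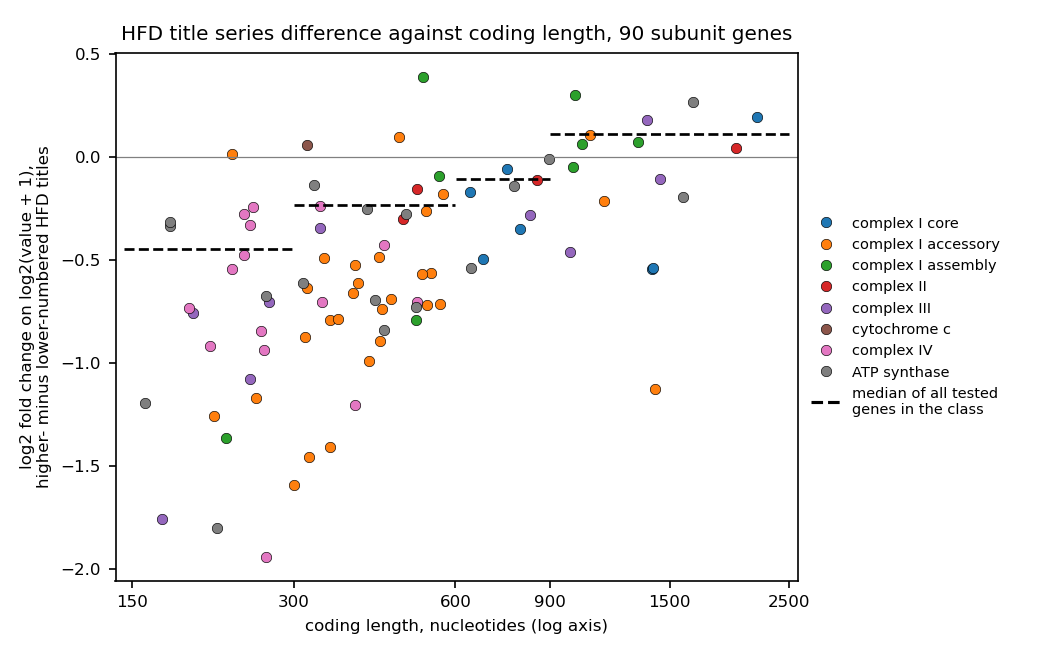
Points are 90 of the 91 genes with an annotated coding length, coloured by role, with coding length in nucleotides on a horizontal log axis and the log2 fold change between the HFD title series, higher- minus lower-numbered, on the vertical axis. Dashed lines are medians of all tested genes in 4 length classes, from -0.45 in the shortest to 0.11 in the longest, and most of the 65 genes with up to 600 nucleotides lie below them.

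The 13 subunits encoded by mitochondrial DNA took the opposite course in sum. Their summed value was 91433, 106910.5, 98405 and 108379.6 in the lower-numbered HFD series and 129742, 120299.7, 118141 and 116517 in the higher-numbered series, and the series did not overlap. Of the 13 genes 5 rose and 1 fell in the higher-numbered series, against 13.5% and 11.6% of all genes, with a median of 0.30. The largest rise was that of mt-Nd4l, a subunit of the membrane arm of complex I, which read 6117, 7264, 5605 and 6285 and then 21928, 16218, 14938 and 13729 (log2 fold change 1.52, SE 0.20, limma adjusted p = 0.000343). mt-Atp8 (1.07, SE 0.19), mt-Nd5 (1.05, SE 0.18), mt-Nd4 (0.57, SE 0.15) and mt-Nd2 (0.53, SE 0.15) also rose. mt-Nd3 fell by 0.74 (SE 0.23), and mt-Co1, the catalytic subunit of complex IV, gave 0.35 (SE 0.18) and did not pass. Mitochondrial genes overlap or adjoin one another on the same transcript. Sequence shared with other genes was measured only for the nuclear set. Whether kallisto could assign reads ambiguously between mt-Nd4l and mt-Nd4, or between mt-Atp8 and mt-Atp6, was not tested.

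Other mitochondrial lists differed in direction between the HFD series, where 11.6% of all tested genes were lower and 13.5% higher. The mitochondrial ribosome translates those 13 subunits, and of its 78 genes 43 fell and 1 rose in the higher-numbered HFD series, with a median of -0.38. Of 38 tested assembly factors outside the Nduf symbols 14 were lower and 2 higher (median -0.083). For the citric acid cycle, 2 of 13 enzymes were higher and 0 lower (median 0.096), near the share of all genes that were higher. Among 17 transcriptional regulators and mitochondrial DNA maintenance genes, 4 were higher and 1 lower (median 0.20). Tfam, which packages mitochondrial DNA and starts its transcription, read 27.6, 34.8, 35.7 and 39.2 in the lower-numbered and 61.7, 54.3, 52.3 and 42.7 in the higher-numbered series (log2 fold change 0.62, SE 0.16, limma adjusted p = 0.0125). Gabpa, which encodes an ETS factor, rose by 0.46 (SE 0.11) and Ppargc1a, a coactivator of mitochondrial genes, by 0.58 (SE 0.20). Esrra, an orphan nuclear receptor that works with it, fell by 0.67 (SE 0.20). Nrf1 (0.35, SE 0.14) and Yy1 (0.22, SE 0.13) did not pass.

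Markers of other cells moved with the series in part. All 5 tested red blood cell markers had a negative fold change between the HFD series, with a median of -1.10. Of these, 2 passed as lower, against 11.6% of all genes, and 4 had an unadjusted p under 0.05 in limma. The summed value of the red blood cell markers ran over 4831 to 6922 in the lower-numbered and 1695 to 4547 in the higher-numbered libraries. Hba-a1, an alpha globin, read 1445, 1693, 1606 and 1734 and then 304, 762, 544 and 861 (log2 fold change -1.83, SE 0.42, limma adjusted p = 0.00727). The coding sequences of globins are short as well. The part of red blood cells in the result was not tested. Of the 6 hepatocyte, 6 Kupffer cell, 6 lymphocyte, 2 skeletal muscle, 2 adipose, 2 pancreas and 5 bile duct markers tested, 0 passed in limma, and 3 had an unadjusted p under 0.05. Kupffer cell sums ran over 268 to 391 and 203 to 269, and hepatocyte sums over 60054 to 75539 and 75762 to 99438, so the hepatocyte sums did not overlap and were above in the higher-numbered series. Alb, the most abundant of them (0.55, SE 0.26), did not pass, while 4 of the 6 hepatocyte markers had negative values and the median of the 6 was -0.16. The 1 at an unadjusted p under 0.05 was Ttr, at -0.51 (SE 0.19). The part of these markers in the result was not tested either.

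Between the title series of the chow libraries 0 of 91 genes passed and 0% of all genes did. At an unadjusted p under 0.05, 6 were lower in the higher-numbered series and 0 higher, against 5.89% of all genes that were lower, and the median was -0.12. Dropping replicate 1 of Mutant_Chow moved it to -0.22 and dropping replicate 2 to -0.069. Dropping replicate 1 of Control_Chow moved it to -0.070 and dropping replicate 3 to -0.059. Ndufs5 (log2 fold change -0.55, SE 0.18, limma adjusted p = 0.279), Ndufs6 (-0.48, SE 0.16), Ndufa2 (-0.50, SE 0.18) and Ndufaf3 (-0.42, SE 0.17) had the smallest p-values. The first 3 of these were also among the genes that fell most between the HFD series. Ndufs6 read 179, 169.6 and 166 in the lower-numbered and 111, 133, 99.99, 148 and 129.8 in the higher-numbered chow libraries, which did not overlap. Ndufv3 (-0.40, SE 0.18) and Uqcrq (-0.25, SE 0.11) were the other 2 at an unadjusted p under 0.05. The lower-numbered chow libraries lay above the higher-numbered ones for 8 of 91 genes, against 3.48% of all genes. Mutant_Chow replicate 1, of the lower-numbered series, and Mutant_Chow replicate 2, of the higher-numbered series, were the pair of lowest chow libraries for complex II, at 788 and 677 summed against 959 to 1043 in the other 6.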

How the data were processed

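Per the labels and the study's methods, total RNA of liver was made into NEBNext Ultra II libraries, sequenced on a NovaSeq instrument and assigned by the authors to the mouse transcriptome (mm10) with kallisto at the gene level, followed by sleuth. Tool versions and the annotation release are not given in the sources used here. The deposited values are a signal per gene, which behaves as size-factor-adjusted TPM although no source states the unit, so depth is unknown and no counting interval was computed. The design foresaw a count model only if the values were counts, and they are not.

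Values were tested as log2(value + 1) with limma 3.58.1 in R 4.3.3, with a trend of variance with mean, on 12704 genes that reached 1 in at least 4 libraries. All 91 genes passed this filter and enter every count, and the values of 1 of them are not reported here. The 16 libraries entered 1 fit of 4 group means, and a second fit added the title series within each diet. The Benjamini-Hochberg adjustment ran over the 12704 genes, with a threshold of 0.05. Fold changes on this scale understate changes of low genes. P-values rest on the spread between mice within the fitted groups, which in the fit of 4 group means also holds the title series difference. In the second fit each series is a single set of libraries, so p-values do not measure the spread between series. Genes named were the markers of each complex, paralogous pairs, the highest and lowest of each role, and per comparison up to 8 called genes in a direction or the 4 smallest p-values. A few others of the 91 are named to account for a role or for a value that stood out, after their values were seen. The rule for the genes uses symbols and no values, but this rule, the lists and the comparisons were chosen with earlier results of these data known. Positions and coding lengths came from GENCODE M21, taking the shortest principal transcript. The scripts were tested on simulated data. Alternatives were another scaling, filter and pseudocount, library weights, the series as a term, and leaving out each library. Fits of 1 title series at a time, and comparisons without Control_HFD replicate 4 beyond the fits, were chosen after seeing the data.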

Additional observations from a re-analysis of the deposited data

How the results depend on the processing

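With library weights, 65 genes passed for genotype on HFD (all lower in mutants, against 14.2% of all genes) and 48 for diet in controls (all higher on HFD, against 9.24%). The lowest weights were those of Control_HFD replicate 4 (0.228) and Mutant_HFD replicate 1 (0.329). In 6 comparisons the reported count is 0 and cannot fall. Over the alternatives, their counts at an unadjusted p under 0.05 ran over 0 to 15 (genotype on chow), 0 to 75 (genotype on HFD), 3 to 65 (diet in controls), 2 to 31 (diet in mutants), 0 to 49 (interaction) and 2 to 17 (chow title series). The highest counts for genotype on HFD, diet in controls and the interaction came with library weights. There 5472, 4266 and 3261 of all 12704 genes had an unadjusted p under 0.05 in limma. For genotype on chow the highest came without Mutant_Chow replicate 4, beside 1108 of all genes. At the adjusted threshold, leaving out 1 library gave 0 to 21 for diet in controls, with 21 without Control_HFD replicate 4 (4.07% of all genes). For the HFD title series it gave 7 to 51, with 7 without that library (2.76% of all genes). For diet in controls, only the lower-numbered HFD series gave 30 (5.85%). Scaling columns to equal totals moved the median of all genes between the HFD title series from 0.043 to 0.17, with 42 of the 91 genes lower and 2 higher (Atp5a1 and Ndufaf4). Relative to all genes the median of the 91 was -0.57 as reported and -0.55 under this scaling. The same scaling moved the median of all genes to -0.16 for diet in controls and to 0.13 for the interaction, where the 91 lay 0.21 above and 0.050 below it. Scaling without the 20 most abundant genes gave 35 lower and 1 higher between the HFD series, against 7.02% and 18.9% of all genes. Sdhb reversed to 0.039 and 0.010 under these scalings. Leaving out 1 library gave -0.075 to 0.18 for Cycs between the HFD series, with the lowest without Mutant_HFD replicate 1. The cause of these changes was not tested. No paired analysis was possible because the labels carry no replicate numbers. Limits are the unknown depth, 4 libraries in each group, the lone control of the higher-numbered HFD series, and the confounding of diet with title series.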
